A study of Sus scrofa with 35 samples.

Results

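SELENOF and CYCS are 2 of the 11795 genes named on a porcine expression array, and they are described here probe by probe in the longissimus dorsi, the main back muscle, of Creole, Large White and F1 pigs. Every non-control probe that the scanner files assign to SELENOF (older name SEP15) or to CYCS was taken, which gave 6 probes for SELENOF and 14 for CYCS out of 60305 probes on the array. A probe of a cytochrome c pseudogene, CYCSP52, was left out because it is another gene by name, and it was well above background on 0 of 35 arrays. Both genes were selected on their Creole minus Large White difference in these same arrays, and in each gene the probe with the widest such difference is called the leading probe. That contrast is therefore given for the members as a description, without a test.

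All pigs were castrated growing males kept in 1 climatic facility. They were pure Creole, pure Large White or Large White × Creole (F1) animals, housed by breed, and per the methods each breed came from a few litters, so pigs of a breed include littermates. TN pigs were slaughtered at thermoneutrality, labelled 24 °C, before the ambient temperature was raised. HS pigs were slaughtered after heat exposure, which the sample labels give as 30 °C and the growth protocol as 32 °C for 5 days, so TN and HS pigs also differ in pen, slaughter day and age. There were 6 arrays in each of Creole TN, Creole HS, F1 TN, Large White TN and Large White HS and 5 in F1 HS, each with the RNA of 1 pig. Of the 9 skeletal muscle markers listed for a check of the tissue, 8 were measured (MB was not), and their summed level on the log2 scale lay between 21.16 and 21.28 on every array. The brightest genes weigh most in this sum, such as ACTA1 and CKM with TN means of 19.38 and 19.27. Quantile normalization gives every array the same set of values, so the evenness of the sum is partly fixed by it. The sum does not measure equal muscle content.

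SELENOF encodes a small selenoprotein of the endoplasmic reticulum, where it binds UGGT, the enzyme that checks the folding of glycoproteins, and carries a redox-active selenocysteine. CYCS encodes somatic cytochrome c, the haem protein that ferries electrons from complex III to complex IV of the respiratory chain in the mitochondrial intermembrane space, and that sets off apoptosis through APAF1 and caspase-9 when it is released into the cytosol. Muscle with many mitochondria is rich in cytochrome c, and selenium supply is a classical factor in muscle health of pigs.

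A probe on this array is a run of 60 bases, and it reports only the stretch of transcript that pairs with it. The sequences that matter here are those in which the leading probe of a gene overlaps another probe of the same gene without being identical to it. The last 30 bases of the leading SELENOF probe, CUST_56_PI427286967, aligned without gaps with the first 30 bases of A_72_P562884 and, over 27 bases, with the start of A_72_P629475. They are printed 5′ to 3′ as the files give them, with capitals at the places where the 3 probes do not all carry the same base.
CUST_56_PI427286967: tctACcattgatcagtctcttaccgAgagg
A_72_P562884: tctTCcattgatcagtctcttaccgTgagg
A_72_P629475: TTcattgatcagtctcttaccgTgagg
Counting from 1 at the 5′ end of the first stretch, and naming the base of the leading probe first, A_72_P562884 differs from it by A4T and A26T, and A_72_P629475 by A4T, C5T and A26T. The first 30 bases of the leading probe overlapped no other SELENOF probe, an overlap being at least 15 aligned bases of which 85% are alike. The leading probe is assigned to another reference sequence than A_72_P562884 and A_72_P629475.

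The leading CYCS probe, A_72_P592869, shared 52 aligned bases with A_72_P573694, which starts 8 bases upstream of it. All 3 differences lie in the first 30 bases of the overlap, printed 5′ to 3′ with the differing bases in capitals.
A_72_P592869: gctgtaccGtGagcacagatCtgtaaatta
A_72_P573694: gctgtaccAtCagcacagatTtgtaaatta
From 1 at the 5′ end of the printed stretch, and with the base of the leading probe first, the differences are G9A, G11C and C21T. None of the 20 member probes shared a run of 20 bases, on either strand, with any of the other 60285 probes on the array. For other overlaps, A_72_P562884 and A_72_P629475 shared 57 bases with 2 differences, and A_72_P592704 and A_72_P681213 of CYCS shared 16 identical bases at their ends. Which of these bases the transcripts of each breed carry was not tested, since no sequence of these pigs was used here.

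Levels are given as log2 of the quantile-normalized median spot intensity, so that 1 unit is a doubling, and a level is compared only with the same probe on other arrays. On CUST_56_PI427286967 the 12 Creole arrays ran from 8.69 through a median of 9.45 to 10.04. The 12 Large White arrays ran from 5.46 through a median of 5.58 to 6.68, and the probe was well above background on 9 of these 12. No Large White array reached the lowest Creole array, and the gap between them was 2.0. The Creole mean was 9.44 ± 0.41 (SD, n = 12) and that of Large White pigs 5.83 ± 0.41 (SD, n = 12), a difference of 3.61 ± 0.40 (SE). The SE of each such difference came from 1 fit of all 35 arrays, so the spread of the F1 arrays enters it. The Large White signal was close to background, with raw median intensities of 39 to 125 against local backgrounds of 29 to 49, and on the background-subtracted processed signal the same difference was 4.86, so no fold is given.

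The 11 F1 arrays did not spread evenly between the parental breeds on the leading SELENOF probe. In F1 TN pigs the values were 5.86, 6.08, 6.12, 8.80, 8.84 and 9.42, and in F1 HS pigs they were 5.51, 5.73, 9.03, 9.07 and 9.24. Thus 5 F1 arrays lay between 5.51 and 6.12, inside the Large White range, and 6 between 8.80 and 9.42, inside the Creole range, with a gap of 2.68 that held no array. Both temperatures had F1 arrays at either end.

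The other 5 SELENOF probes showed nothing of this size. Their Creole minus Large White differences ran from -0.17 to 0.03 with a median of -0.09, and Creole and Large White arrays overlapped on each of them. On A_72_P562884, which shares the aligned stretch above, the Creole arrays ran from 11.17 through 11.62 to 12.27, the F1 arrays from 11.05 through 11.37 to 12.01 and the Large White arrays from 10.94 through 11.79 to 12.46. The 3 ranges overlapped almost entirely, and the difference of Creole minus Large White was -0.17 ± 0.13 (SE). A_72_P629475, whose overlap with A_72_P562884 holds 2 differing bases, moved with it, the per-array difference between them having an SD of 0.07 in Creole, 0.08 in F1 and 0.10 in Large White pigs. The remaining probes, O9245, A_72_P583496 and A_72_P232467, differed between Creole and Large White by 0.02 ± 0.11, -0.13 ± 0.12 and 0.03 ± 0.11 (SE).

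**Figure D1:**
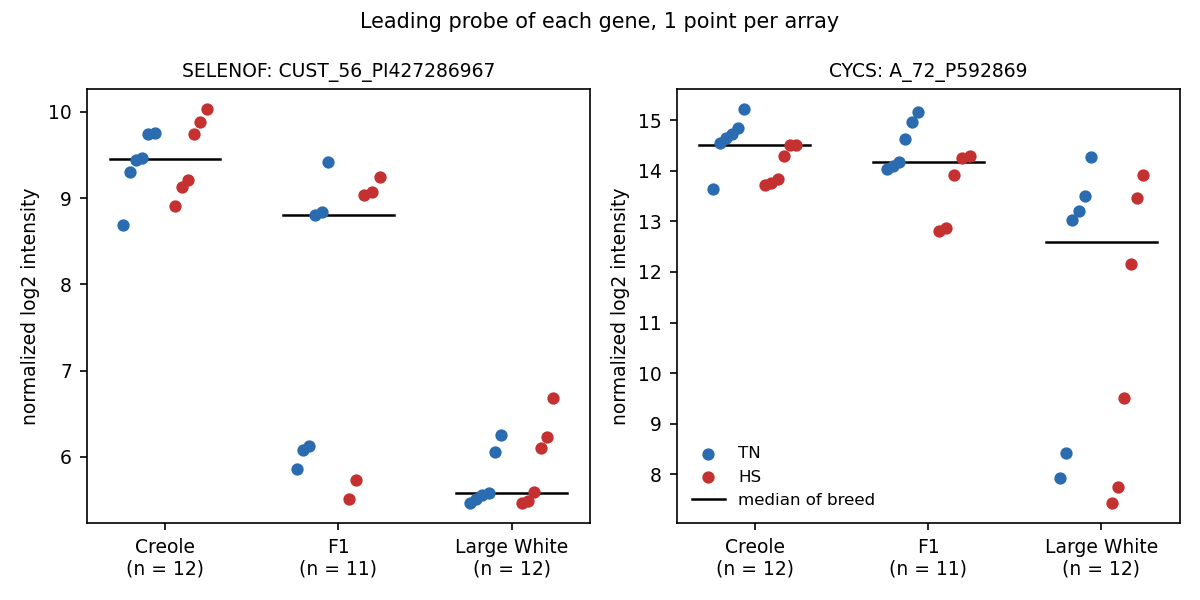
Normalized log2 intensity (vertical axis) of the leading SELENOF probe (left) and the leading CYCS probe (right) on each array, by breed, with TN arrays in blue, HS arrays in red and the median of each breed as a line. F1 arrays fall in 2 separate ranges on the SELENOF probe (5.51 to 6.12 and 8.80 to 9.42), and Large White arrays spread from 7.43 to 14.27 on the CYCS probe.

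On the leading CYCS probe, A_72_P592869, the Creole arrays were all high, from 13.63 through a median of 14.50 to 15.22. The F1 arrays ran from 12.81 through 14.18 to 15.15 and overlapped the Creole arrays. The Large White arrays were spread widely. In Large White TN pigs the lowest value was 7.92, the median 13.11 and the highest 14.27, and in Large White HS pigs the lowest was 7.43, the median 10.83 and the highest 13.91. Over both temperatures 5 Large White arrays lay between 7.43 and 9.50 and 7 between 12.15 and 14.27, with a gap of 2.65 that held no array. The probe was well above background on all 12 of them, with raw median intensities between 172 and 19837 against local backgrounds of 29 to 56. The Creole mean was 14.35 ± 0.51 (SD, n = 12) and that of Large White pigs 11.21 ± 2.74 (SD, n = 12), a difference of 3.14 ± 0.64 (SE), or 8.79-fold, and the highest Large White arrays overlapped the Creole arrays. That Large White mean lies in the gap between 9.50 and 12.15, so the fold describes no single array.

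The overlapping probe A_72_P573694 gave a different picture of the same arrays. The Creole arrays ran from 13.20 through 14.42 to 14.82, the F1 arrays from 13.69 through 14.36 to 14.79 and the Large White arrays from 14.07 through 14.80 to 15.29, a difference of Creole minus Large White of -0.34 ± 0.15 (SE). On the 5 Large White arrays with the lowest leading-probe values (7.43, 7.75, 7.92, 8.43 and 9.50) this probe read 14.63, 15.04, 15.15, 15.29 and 14.82. The arrays that were lowest on one probe were thus not low on the other, although the probes differ in only 3 of 52 aligned bases. The values 15.04, 15.15 and 15.29 were the highest of the Large White arrays on A_72_P573694. In F1 pigs the arrays at 12.81 and 12.86 on the leading probe read 14.76 and 14.78 on it. Those at 14.63, 14.97 and 15.15 read 13.69, 14.04 and 14.21, while the array at 14.18 read 14.79, the highest F1 value. In Creole pigs r between the probes was -0.05. The per-array difference, leading probe minus overlapping probe, had an SD of 0.67 in Creole, 1.02 in F1 and 2.98 in Large White pigs. It did not spread evenly in Creole and F1 pigs either. The Creole values were -0.87, -0.85, -0.77, -0.77, 0.02, 0.07, 0.18, 0.19, 0.25, 0.26, 0.92 and 1.09. The F1 values were -1.94, -1.92, -0.67, -0.62, -0.44, -0.43, 0.05, 0.15, 0.93, 0.94 and 0.94. The cause of these steps was not tested.

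**Figure D2:**
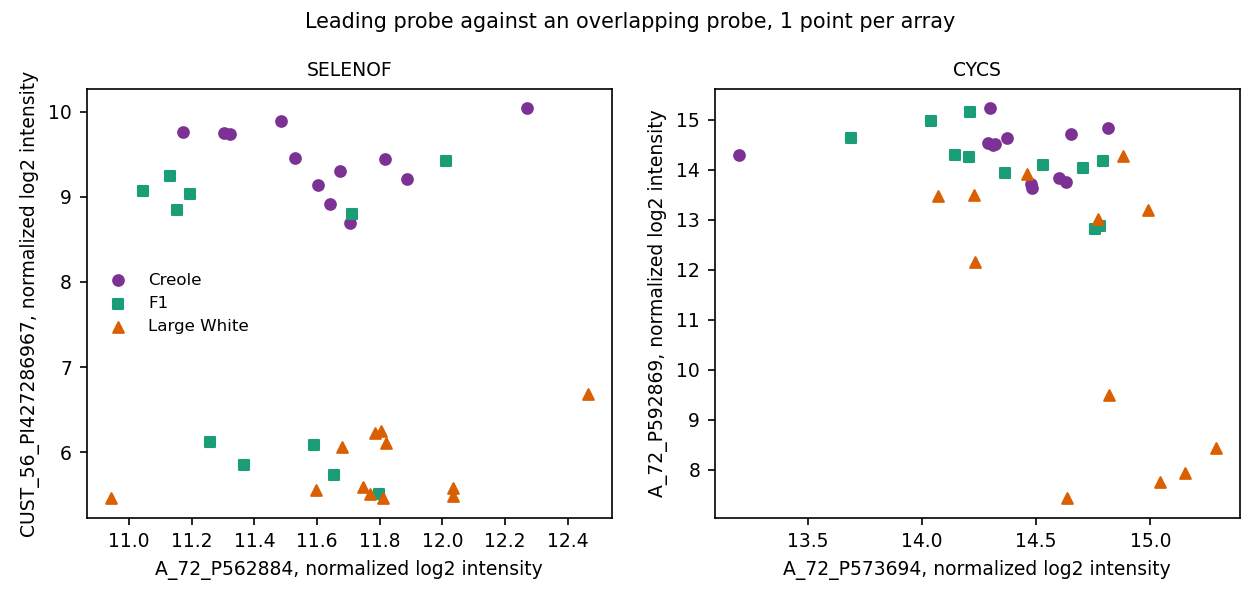
The leading probe (vertical axis) against an overlapping probe of the same gene (horizontal axis), both as normalized log2 intensity, with 1 point per array for SELENOF (left) and CYCS (right), Creole as circles, F1 as squares and Large White as triangles. On the CYCS panel the 5 Large White arrays between 7.43 and 9.50 on A_72_P592869 lie between 14.63 and 15.29 on A_72_P573694.

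The other CYCS probes are given by the start position that the files list on their reference transcript, which is base 50 for A_72_P654023 and base 392 for A_72_P667834. Their Creole minus Large White differences, the leading probe apart, ran from -0.34 to 0.42 with a median of 0.05. The difference was 0.14 ± 0.14 on A_72_P654023, 0.03 ± 0.09 on A_72_P667834, 0.05 ± 0.09 on A_72_P584036 (base 482) and 0.05 ± 0.12 on A_72_P621955 (base 531). It was -0.13 ± 0.12 on A_72_P375810 (base 606), 0.25 ± 0.15 on A_72_P616319 (base 643), 0.22 ± 0.10 on A_72_P555705 (base 844), 0.30 ± 0.10 on A_72_P592704 (base 1089) and 0.42 ± 0.10 on A_72_P681213 (base 1134), each with its SE. The largest positive values among these probes thus stood at bases 1089 and 1134, just upstream of the leading pair at 1221 and 1229, and the sign turned on A_72_P573694. The dim probe A_72_P485031 (base 340) differed by 0.01 ± 0.25. A_72_P020106 and O10663, which are assigned to other reference sequences, differed by -0.02 ± 0.08 and -0.02 ± 0.07.

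**Figure D3:**
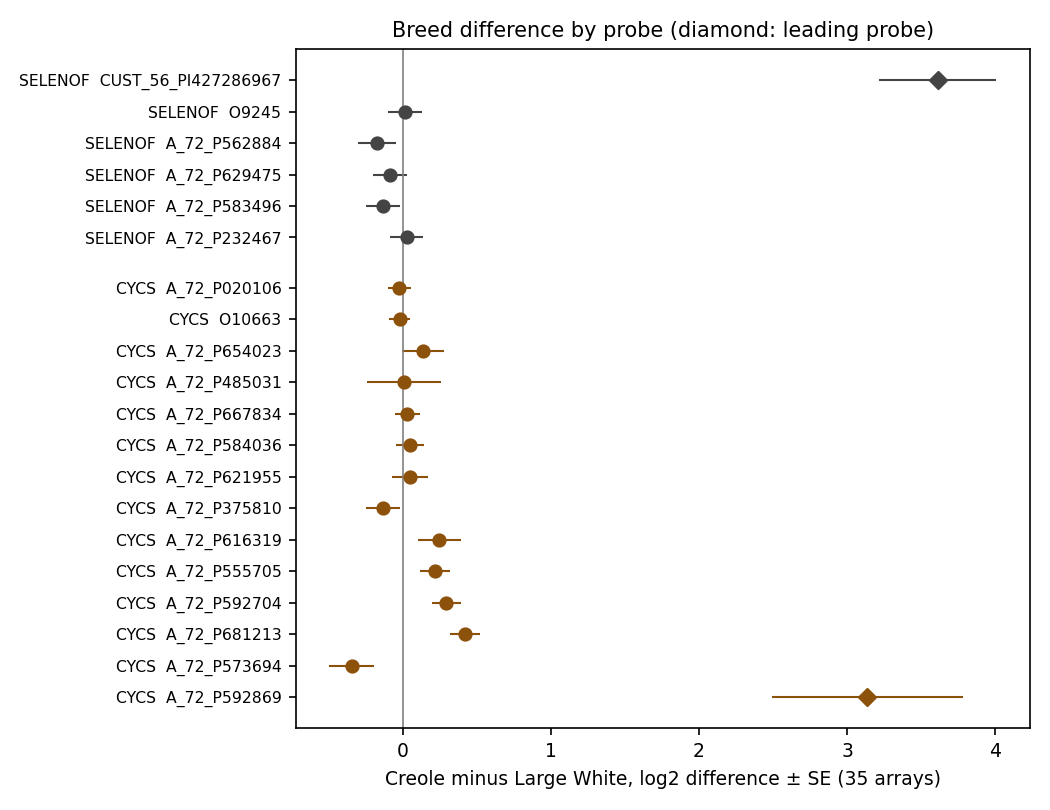
Creole minus Large White difference (log2, horizontal axis) with its SE for each of the 6 SELENOF and 14 CYCS probes (vertical axis), the probes of a gene in the order of their position where the files give one, with the leading probe as a diamond. The leading probes stand at 3.61 and 3.14, and the other 18 lie between -0.34 and 0.42.

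Across all 41517 probes that passed the filter on dim signal, 3.65% differed between Creole and Large White at a Benjamini-Hochberg adjusted p under 0.05 in limma, and 1.73% were higher in Creole. Because the members were chosen on this contrast, no such call is given for them. All 20 members had passed the filter, which asked for signal well above background on 75% of the arrays of at least 1 group.

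The arrays were printed on 5 slides that each mixed breeds, and the differences were taken again within each slide. For the leading SELENOF probe Creole minus Large White was 4.17, 3.50, 3.01, 3.39 and 4.34 on slides 1 to 5. The Large White values moved with the slide and lay between 5.46 and 5.59 on slides 1, 2 and 5 and between 6.06 and 6.68 on slides 3 and 4. For the leading CYCS probe the same differences were 3.74, 6.62, 2.66, 0.84 and -0.17. Slides 4 and 5 held none of the 5 low Large White arrays, while the 3 Large White arrays of slide 2 were all among them. Slide 5 carried only 1 Creole and 2 Large White arrays, and the part of the slide in the values of the CYCS probe was not tested.

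The F1 mean was next set against the midpoint of the Creole and Large White means. The F1 arrays played no part in the choice of members, but the midpoint is made from the parental means that did, so the test is not fully independent of that choice and the distances of the leading probes are given without a p. None of the 20 member probes passed this test (limma, smallest adjusted p 0.401), against 0.246% of all probes, and 3 of the 20 members and 3055 of all 41517 probes had an unadjusted p under 0.05. The F1 mean of the leading SELENOF probe was -0.02 ± 0.35 (SE) from the midpoint, although no single F1 array was near it. Averaging linear intensities in place of log2 values put the F1 mean at 8.34 and the parental midpoint at 8.61. For the leading CYCS probe F1 stood 1.29 ± 0.57 (SE) above a midpoint that includes the low Large White arrays, and on linear intensities the F1 mean was 14.26 against a midpoint of 13.82. On the other SELENOF probes the distances ran down to -0.29 ± 0.10 on A_72_P629475 (limma adjusted p 0.401).

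Temperature played no part in the choice of members. SELENOF did not pass the test for HS minus TN on any of its 6 probes, with differences between 0.09 and 0.16, a median of 0.13, no unadjusted p under 0.05 and a smallest adjusted p of 0.243 (limma). On the leading probe HS minus TN was 0.16 ± 0.33 (SE), being 0.09 in Creole, 0.20 in F1 and 0.19 in Large White pigs, against an SD of 1.81 over the 18 TN arrays. On A_72_P232467 it was 0.13 ± 0.09 (SE), with HS arrays above the TN mean of their breed in 9 of 17 pigs.

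CYCS was lower in HS. On 7 of its 14 probes the fall passed the test, against 8.3% of all 41517 probes that fell and 16% that changed in either direction, and 13 of the 14 differences were below 0. The exception was A_72_P020106 at 0.11 ± 0.07 (SE), which did not pass. The 13 include the dim probes O10663 (-0.12 ± 0.06, SE) and A_72_P485031 (-0.13 ± 0.21), neither of which passed. Their raw median intensities were 80 to 124 and 42 to 185, against local backgrounds of 27 to 54 and 29 to 51. The median over the 14 probes was -0.33, beside -0.02 over all probes. The 7 probes are assigned to 1 reference transcript, so they are repeated measurements and not 7 independent genes.

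The largest fall that passed was on A_72_P555705. In Creole pigs the TN arrays ran from 13.16 through a median of 13.78 to 14.07 and the HS arrays from 12.90 through 13.08 to 13.49. In Large White pigs the TN arrays ran from 13.07 through 13.37 to 13.85 and the HS arrays from 12.57 through 13.11 to 13.30. In F1 pigs the TN arrays ran from 13.36 through 13.66 to 13.89, and the 5 HS arrays were at 13.14, 13.16, 13.16, 13.29 and 13.41. The groups of a breed overlapped in part in all 3 breeds, with every one of the 17 HS arrays below the TN mean of its breed. The fitted difference was -0.44 ± 0.08 (SE; limma adjusted p 0.000584).

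The other 6 probes that fell were A_72_P681213 (-0.43 ± 0.08, SE), A_72_P616319 (-0.40 ± 0.12), A_72_P375810 (-0.38 ± 0.10), A_72_P621955 (-0.38 ± 0.10), A_72_P592704 (-0.36 ± 0.08) and A_72_P667834 (-0.29 ± 0.07), with limma adjusted p between 0.000943 and 0.0214. Between 14 and 17 of the 17 HS arrays lay below the TN mean of their breed on these probes. All 7 lie from base 392 onward, but so do A_72_P584036 (base 482), A_72_P573694 (base 1221) and the leading probe (base 1229), which did not pass. Within each of the 5 slides all 7 were lower in HS, by differences between -0.79 and -0.04, slide 5 setting only 1 Creole HS array against 2 Large White TN arrays. Of the probes that did not pass, A_72_P654023 gave -0.24 ± 0.12, A_72_P584036 -0.15 ± 0.08, A_72_P573694 -0.16 ± 0.13 and the leading probe -0.80 ± 0.53 (SE). The last has the largest point estimate and the widest error, the SD over TN arrays being 2.08.

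**Figure D4:**
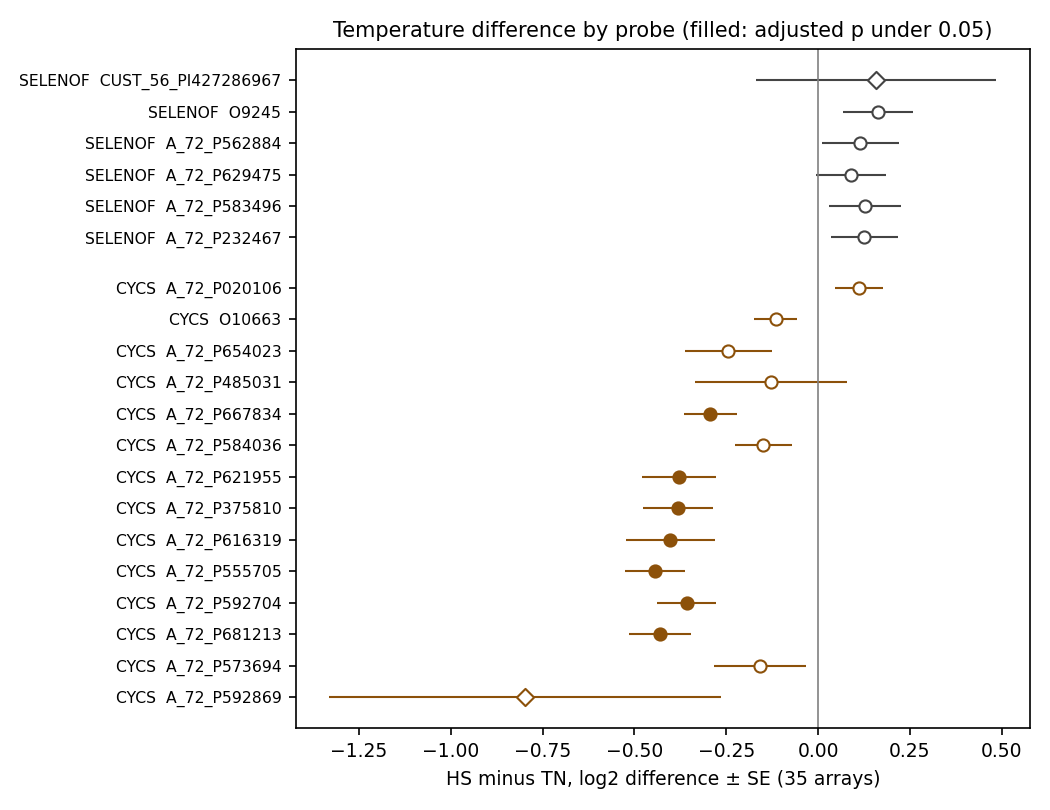
HS minus TN difference (log2, horizontal axis) with its SE for each SELENOF and CYCS probe (vertical axis), filled where the limma adjusted p was under 0.05 and with the leading probe as a diamond. The 7 filled CYCS probes lie between -0.44 and -0.29, and the 6 SELENOF probes between 0.09 and 0.16.

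HS arrays were brighter before normalization, with an upper-quartile raw intensity between 471 and 785 (median 582) against 426 and 678 (median 516) in TN. With that brightness as a covariate 3 CYCS probes in place of 7 passed the test, A_72_P555705, A_72_P592704 and A_72_P681213. Over all 41517 probes the covariate left 2103 in place of 6656 that passed. The 4 that no longer passed were also lower in HS, by differences of -0.35 to -0.23 in place of -0.40 to -0.29. Markers of other cell types also moved with temperature. Of 11 leukocyte markers measured 4 rose, among them LYZ by 2.26 ± 0.51 (SE), and their summed level was 12.04 to 15.09 in TN and 13.29 to 15.48 in HS. Of 9 connective tissue markers 4 rose, with a summed level of 17.27 to 18.52 in TN and 18.08 to 18.78 in HS. Of 4 blood cell markers measured, HBB (-1.21 ± 0.22, SE) and AHSP (-0.43 ± 0.15) fell. ALAS2 (-0.23 ± 0.10) and SLC4A1 (0.37 ± 0.17) did not pass. The summed level of the blood cell markers was 10.66 to 12.10 in TN and 11.06 to 12.23 in HS. Of 6 endothelial markers VWF fell (-0.37 ± 0.08, SE), with a summed level of 13.17 to 14.22 in TN and 12.97 to 13.63 in HS, and of 6 nerve markers NEFM rose (1.34 ± 0.29, SE), with a summed level of 11.80 to 12.81 in TN and 11.87 to 12.78 in HS. None of 6 adipocyte markers passed. Of 10 slow and 10 fast fibre genes, TPM3 and 3 fast fibre genes fell and CASQ2 rose, and of 8 skeletal muscle markers 2 rose and 2 fell. The part of brightness and of these markers in the CYCS result was not tested beyond the covariate, and in whole muscle fewer fibres of a type and less RNA per fibre cannot be told apart.

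The change with temperature did not differ detectably between breeds. The test of the breed by temperature interaction called 0% of probes, none of the 20 members among them (limma, smallest adjusted p 0.963), while 1592 of all probes and 0 of the members had an unadjusted p under 0.05. A probe-level version of the temperature question asked whether the leading probe moved apart from the other probes of its gene. HS minus TN of the leading probe relative to the median of the others was 0.02 for SELENOF, with an SD of 1.79 over TN and 1.82 over HS arrays (two-sided permutation test within breeds, p = 0.955, adjusted p = 0.955). For CYCS it was -0.43, with SDs of 2.06 and 2.39 (same permutation test, p = 0.438, adjusted p = 0.876).

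Within a breed, the other SELENOF probes varied together across arrays, while no relation of the leading probe with them passed the test. Among the other 5 probes the pairwise Pearson r ran from 0.854 to 0.974 in Creole, 0.590 to 0.973 in F1 and 0.838 to 0.971 in Large White pigs. Between the leading probe and these 5, r lay between -0.14 and 0.18 in the 12 Creole arrays and between 0.50 and 0.64 in the 12 Large White arrays. None of these 10 relations passed a permutation test after adjustment over the 23 relations computed (both genes), and Spearman's rho gave none either. The strongest was with O9245 in Large White pigs (r = 0.641, permutation p = 0.0219, adjusted p = 0.072; rho = 0.573, permutation p = 0.056, adjusted p = 0.143), and r was 0.29 without the 2 arrays farthest from the median. Over all 5 probes r without such arrays lay between 0.10 and 0.29 in Large White pigs. In Creole pigs it then lay between -0.68 and -0.33, so r there depends on 2 arrays. These values were not tested. F1 arrays fell in separate ranges on the leading probe, so no correlation was computed there.

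The other 13 CYCS probes did not all vary together within a breed. Their pairwise Pearson r ran from -0.243 to 0.975 in Creole, -0.161 to 0.976 in F1 and -0.328 to 0.953 in Large White pigs. The medians were 0.628, 0.497 and 0.615. The leading CYCS probe varied with part of its gene over the TN and HS arrays of Creole pigs together. Of 13 relations 3 passed on Pearson's r and 7 on Spearman's rho. TN and HS arrays were permuted together in these tests, so a shift with temperature common to both probes enters r and p. In Creole pigs HS minus TN was -0.50 on the leading probe and -0.56, -0.58 and -0.47 on A_72_P555705, A_72_P375810 and A_72_P681213. The part of temperature and slide in these relations was not tested. The relation with A_72_P555705 was the strongest on r (r = 0.886, permutation p = 0.00017, adjusted p = 0.00391; rho = 0.867, permutation p = 5e-04, adjusted p = 0.00368), and r was 0.88 without the 2 farthest arrays. The relation with A_72_P375810 had r = 0.799 (permutation p = 0.002, adjusted p = 0.023; rho = 0.860, permutation p = 0.00064, adjusted p = 0.00368) and 0.84 without those arrays. The third was with A_72_P681213 (r = 0.745, permutation p = 0.00516, adjusted p = 0.0396; rho = 0.888, permutation p = 0.00026, adjusted p = 0.00368), and r was 0.72 without them. With the overlapping probe A_72_P573694, which shares most of its bases, r was -0.05 (permutation p = 0.887, adjusted p = 0.927; rho = -0.05, permutation p = 0.885, adjusted p = 0.925), and 0.03 without the 2 arrays. In F1 and Large White pigs the widest gap between sorted arrays on the leading probe was over 1 log2 unit (1.06 and 2.65), and no correlation was computed.

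The genes most like each leading probe were sought among all probes with a symbol, as a description over the 35 arrays, which share breed, temperature and slide. For the SELENOF probe these were UFC1 (r = 0.763), the conjugating enzyme of the UFM1 pathway, TRIM13 (0.759), a ubiquitin ligase of the endoplasmic reticulum, USF1 (0.754), a transcription factor, DUSP12 (0.747), a phosphatase, and RPS13 (0.745), a ribosomal protein. Its best r with another SELENOF probe was 0.173. These 5 genes were also higher in Creole than in Large White pigs, by 0.27 to 1.30. The leading probe was picked on that contrast, so the breed difference enters r. In the reference gene order UFC1, USF1 and DUSP12 lie on the chromosome of SELENOF, with 577 to 604 protein-coding genes between them and it and 6 to 26 between one another. For the CYCS probe they were PIGY (r = 0.904), a subunit of the enzyme that starts GPI anchor synthesis, RGP1 (0.736), HSD17B4 (0.696), an enzyme of peroxisomal beta-oxidation, LOC100156967 (0.641) and PPFIBP2 (0.621), with a best r of 0.537 within CYCS, and none of these lies on its chromosome in that order. The 5 genes named for CYCS were likewise higher in Creole than in Large White pigs, by 0.40 to 1.17. When deviations from the 6 group means were used, PIGY again came first for CYCS (0.842), followed by SLCO1A2, RPL11, LOC100156967 and TMEM41B (0.670 to 0.618), with 0.306 as the best r within CYCS. For SELENOF they were then FAU, RPS25, NEK3, RAB14 and AFMID (0.707 to 0.661), with 0.266 within SELENOF.

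The nearest protein-coding neighbours gave no breed difference of the size of the leading probes. On the 2 sides of SELENOF, LMO4, HS2ST1 and SH3GLB1 differed between Creole and Large White by 0.01 ± 0.07, -0.14 ± 0.07 and 0.10 ± 0.07 (SE; limma adjusted p 0.961, 0.339 and 0.575). On the sides of CYCS, DFNA5 alone had a measured probe, with -0.02 ± 0.07 (SE; limma adjusted p 0.93).

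The partners of both proteins were taken from lists of genes, with 1 probe per gene, namely the one with the highest mean. Of the 9735 genes so represented 8.45% rose and 9.84% fell in HS, and 1.55% were higher and 2.21% lower in Creole. Of 16 selenoproteins measured besides SELENOF, 3 rose, 2 fell and 11 did not pass, with a median of 0.02 beside -0.02 over all genes. SELENOP, the selenium carrier of plasma, rose by 0.47 ± 0.09 (SE; limma adjusted p 0.000533), SELENOS, a membrane protein of endoplasmic reticulum-associated degradation, by 0.50 ± 0.09 (0.000535) and GPX2, a glutathione peroxidase, by 0.54 ± 0.19 (0.0463). SELENOO, a mitochondrial selenoprotein, and MSRB1, a methionine sulfoxide reductase, differed by -0.23 ± 0.07 (0.0186) and -0.26 ± 0.09 (0.0479). Of 6 genes of selenoprotein synthesis PSTK, a kinase that acts on the selenocysteine tRNA, fell (-0.16 ± 0.05, SE; limma adjusted p 0.0387), with a list median of -0.11, and of 8 genes of glycoprotein folding in the endoplasmic reticulum CANX (calnexin) rose (0.30 ± 0.10, SE; limma adjusted p 0.041), with a list median of 0.20. UGGT1, the partner of SELENOF, had -0.08 ± 0.06 (SE; limma adjusted p 0.332). Its probe was dim, with means of 5.73 in TN and 5.65 in HS, so a change could be missed.

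Of 15 subunits of complex III and complex IV measured, the electron partners of cytochrome c, 10 fell in HS, none rose and 5 did not pass, with a median of -0.27. The largest falls were UQCRC1 (-0.36 ± 0.07, SE; limma adjusted p 0.00158), CYC1, the cytochrome that hands electrons to cytochrome c (-0.36 ± 0.07; 0.000585), and COX4I1 (-0.34 ± 0.08; 0.00449). With array brightness as a covariate 5 in place of 10 passed, and over the 6 lists together 8 genes in place of 21. Of all probes 2103 in place of 6656 passed with that covariate. Of 5 genes of cytochrome c maturation and import AIFM1 fell (-0.22 ± 0.07, SE; limma adjusted p 0.0384), with a list median of -0.03. Of 12 genes through which cytochrome c acts in apoptosis 3 fell, BAK1 (-0.26 ± 0.06, SE; limma adjusted p 0.00362), which permeabilizes the outer membrane, and the porins VDAC1 (-0.20 ± 0.05; 0.00977) and VDAC2 (-0.19 ± 0.05; 0.0115), with a list median of -0.05. Between Creole and Large White none of the 62 genes of these 6 lists passed, and their medians lay between -0.04 and 0.05.

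**Figure D5:**
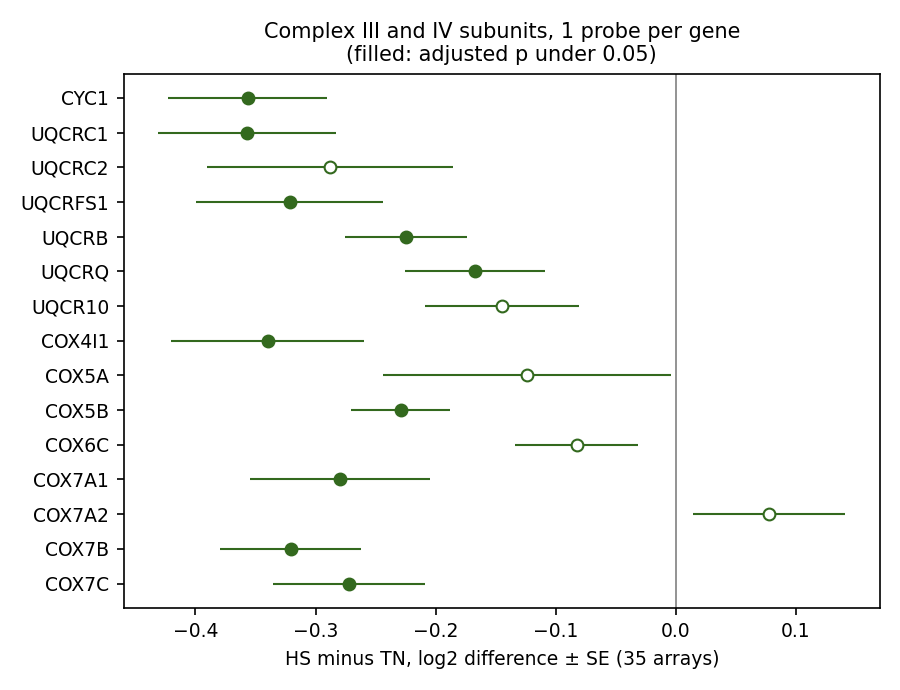
HS minus TN difference (log2, horizontal axis) with its SE for the 15 measured subunits of complex III and complex IV (vertical axis), filled where the limma adjusted p was under 0.05. All but COX7A2 lie below 0, and 10 are filled.

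Among marker lists of cell and fibre types in the breed comparison, 1 of 10 slow fibre genes (TPM3), 2 of 9 connective tissue markers (COL3A1 and DCN) and 2 of 6 endothelial markers (KDR and PECAM1) were lower in Creole, and no gene of the adipocyte, leukocyte, blood cell, nerve, fast fibre or skeletal muscle lists passed. The summed level of the connective tissue markers was 17.27 to 18.54 in Creole and 17.94 to 18.78 in Large White, and that of the endothelial markers 12.99 to 13.60 and 13.26 to 14.22. Their part in the values of the leading probes was not tested.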

How the data were processed

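Muscle RNA of 35 pigs was labelled with Cy3 and hybridised by the authors to 1-colour Agilent porcine arrays, and spots were quantified with Feature Extraction 10.10.1.1. Linear intensity values of each spot (median and mean pixel intensity, local background, processed signal) were deposited with flags for outlier, saturated and well-above-background spots. The authors also deposited log2 values of 40649 probes after quantile normalization and a filter on expression, and all 35 columns matched the scanner file of the same sample best. Here the median intensity was quantile-normalized without background subtraction, log2 was taken and 105 outlier spots were left out, none being saturated. Of 60305 probes, 41517 were well above background on 75% of the arrays of at least 1 group and were tested. The number of arrays limits the precision. Upper-quartile raw intensity ran from 426 to 785 per array, and 58.4% to 75.9% of probes were well above background. No 2 arrays held identical values.

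An additive model of both factors was fitted (limma 3.58.1, R 4.3.3), with Benjamini-Hochberg adjustment over all tested probes at 0.05, and the interaction in a model with 1 mean per group. The random terms of the study's model (pen, slaughter day, father, mother) are not in the labels, so littermates were treated as independent pigs. Permutation tests drew 100000 resamples with temperature labels permuted within breed, or arrays of both temperatures permuted together within breed for correlations. Correlations were not computed where sorted neighbours lay more than 1 log2 unit apart. Fits and permutation tests were checked on simulated data. Alternatives were other scalings and background corrections, the deposited table, other filters, slide, array weights or brightness in the model, 1 temperature at a time, and leaving out each array in turn. A symbol was found for 24453 probes, 9784 of them through an accession in the reference gene table (Sscrofa11.1), which served for names and gene order only. The genes named are all probes of both members, the 5 genes most like each leading probe on either measure, the nearest neighbours, and up to 3 called genes per list and direction. The members and all gene lists were chosen with earlier results of these data known. Probes were not placed on the genome.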

Additional observations from a re-analysis of the deposited data

Results flagged for a closer look

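Within the 6 groups, 9 of 120 sets of values (20 probes in 6 groups) held 1 array that stood apart from the rest by Dixon's criterion, where chance alone gives about 6, and probes of 1 gene are not independent of each other. Of these, 5 were the same array, Creole HS replicate 1, which was the lowest of its group on the CYCS probes A_72_P654023 (11.20, next 12.19), A_72_P667834 (12.45, next 13.01), A_72_P584036 (13.37, next 14.06), A_72_P592704 (13.32, next 13.84) and A_72_P573694 (13.20, next 14.31). Without that array 7 CYCS probes still passed the test for HS minus TN. The others were F1 HS replicate 5 on A_72_P616319 (11.74, next 11.33), Large White HS replicate 5 on the SELENOF probe O9245 (13.78, next 13.17), Large White TN replicate 1 on A_72_P629475 (10.74, next 11.37) and F1 TN replicate 2 on A_72_P583496 (13.84, next 13.38). On none of the 20 probes did all HS arrays of one breed move up and all of another breed move down.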

How the results depend on the processing

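SELENOF gave 0 probes called for HS minus TN, and both genes gave 0 for F1 minus midpoint and for the interaction, under every alternative fitted and without each array in turn. CYCS gave 3 to 8 probes called under the alternatives and 7 without each array in turn, the 3 being with array brightness as a covariate; of 77 values of the 7 called probes, all kept their direction and 73 their call, and the 4 that lost it were under that covariate, at -0.35 to -0.23 with adjusted p between 0.0717 and 0.126. Under that covariate 2103 in place of 6656 of all probes passed for HS minus TN. With the same covariate 5 electron partners, 8 of the listed genes for HS minus TN and 1 for Creole minus Large White (VDAC1) passed, and HS minus TN of the leading SELENOF probe was -0.0179. With slide as a block 1 listed gene (SELENOM) passed for Creole minus Large White. Without each array in turn the electron partners called were 9 to 12, the listed genes 15 to 25 for HS minus TN and 0 to 1 for Creole minus Large White (SELENOM without Creole TN replicate 2, Large White HS replicate 4 or Large White TN replicate 3).

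For the leading probes, Creole minus Large White was 3.56 to 3.68 for SELENOF and 2.79 to 3.43 for CYCS without each array in turn. It moved by more than the spread between arrays to 4.86 for SELENOF on the background-subtracted processed signal, and for CYCS to 6.62 within slide 2, 0.84 within slide 4 and -0.17 within slide 5, where the sign turned. F1 minus midpoint of the leading SELENOF probe, near 0, took the other sign with 75th percentile scaling (0.00305), the processed signal (0.0698), brightness (0.0374) and HS arrays only (0.0102), and ran from -0.21 to 0.21 without each array in turn. With 75th percentile scaling 6 relations of the leading CYCS probe in place of 3 passed. Under that scaling r of the leading SELENOF probe with the other 5 in Large White pigs lay between 0.24 and 0.39. Without the 2 arrays farthest from the median it lay between -0.18 and -0.10. Scaling moved the split of all probes called in HS: 48.2% of them were higher with quantile normalization, 27.2% with 75th percentile scaling, 37.5% with the processed signal, 56.7% with median scaling and 63.5% with the brightness covariate. The cause of these changes was not tested. Signal near background limits the leading SELENOF probe in Large White pigs, where 9 of 12 arrays were well above background. No paired analysis was possible because replicate numbers only name the arrays.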
